A study of Sus scrofa with 12 samples.

Results

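MiR-204 was followed as 1 of 337 known microRNAs, and 1 of 5850 named small RNAs, in the small intestine of piglets before and after weaning. It was chosen for its rise at 7 days of weaning in these data, by the name ssc-miR-204 in the list of each library, so its levels at 7 days are a description and carry no test. The 12 small RNA libraries came from pigs of the Large White breed (labelled "Big white"), with 3 libraries in each of 4 groups. The feeding group was still suckling after 21 days of age, and the other groups had been weaned for 1, 3 or 7 days after that age. All groups share breed and tissue, and the labels name no genotype, sex, litter, gut segment or agent. They also do not say whether each library is a separate animal, so p-values measure only the spread between libraries, which may be technical. Age goes with days of weaning among the weaned groups, and the age of the feeding piglets at sampling is not given, so age and length of weaning cannot be told apart.

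A microRNA is a short RNA cut from a hairpin precursor. It guides the Argonaute protein to messenger RNAs that pair with its seed, a stretch near its 5′ end, and lowers their stability or translation. In human and mouse, miR-204 is known for its high level in retinal pigment epithelium, choroid plexus, kidney and pancreatic islets. In rodent and human beta cells it acts on the insulin gene activator MAFA, and in mesenchymal progenitor cells on the bone regulator RUNX2. It belongs to a seed family with miR-211, whose hairpin lies in TRPM1 in human. In RefSeq's annotation of Sscrofa11.1, the pig precursor gene MIR204 lies on chromosome 1 from 224065494 to 224065602, a hairpin of 109 bases. That interval falls within the span of TRPM3, a cation channel gene on chromosome 1 from 223833263 to 224682424. Exons and introns were not analysed here, and miR-211 was not analysed here.

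Each library listed between 24670093 and 27784417 counts, including 6987325 to 18331061 from known microRNAs, of which it detected 306 to 322. The gut epithelium microRNAs miR-192, miR-194 and miR-215 were present in every library, as the tissue label implies. One library differed from the rest: in replicate 1 of the 7-day group known microRNAs made up 25.3% of the counts, against 46.4% to 66.8% in the other 11 libraries. The main 7-day values of miR-204, and the 7-day medians of the gut epithelium and neuronal lists, are therefore also given without that library. The 7-day ranges of marker levels and sums include it, so their low ends can rest on that library alone. It holds the lowest level of miR-429, 1354 CPM. The same holds for miR-194b-5p (1648), miR-145-5p (60.7), miR-199b-3p (2.06) and miR-138 (1.18), among others. Its miR-192 level, 52121, was not the lowest. Levels are given as normalised CPM, read counts scaled to a common library size of named small RNAs and corrected by TMM, a scaling that trims extreme features.

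In suckling piglets miR-204 was a microRNA of middle abundance. Its raw counts were 4120, 5004 and 3917 in feeding replicates 1 to 3. After 1 day of weaning the counts were 5648, 5274 and 3829, after 3 days 5493, 7573 and 9440, and after 7 days 4723, 15170 and 14295. The lowest of these counts carries a 95% counting interval of about ±3.18% (exact Poisson) and the highest ±1.59%, and these cover counting error only, since PCR copies were not told apart. Counting error was thus small beside the spread between libraries of a group. Over the 12 libraries, miR-204 ranked 93 of 295 known microRNAs tested by mean level and held 0.0222% to 0.127% of a library's known microRNA counts.

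As normalised CPM, miR-204 stood at 277, 328 and 187 in the feeding libraries. It stood at 297, 245 and 205 after 1 day of weaning, all inside the feeding range on this scale. After 3 days it stood at 382, 482 and 493, each above every feeding library and every 1-day library. After 7 days it stood at 278, 909 and 596, so replicates 2 and 3 were above all 9 libraries of the other groups while replicate 1 lay inside the feeding range. The group means were 264 ± 71.4 (SD, n = 3) in feeding, 249 ± 46.4 after 1 day, 452 ± 61.2 after 3 days and 594 ± 316 after 7 days. The order of the means was therefore 7 days, 3 days, feeding and 1 day. Feeding and 1 day overlapped library by library, as did 7 and 3 days, so neither pair of neighbours is separated beyond its spread. The 3-day and feeding libraries, the neighbours in the middle of that order, did not overlap. On the log2 scale the SD between libraries was 0.41 in feeding, 0.27 after 1 day, 0.20 after 3 days and 0.87 after 7 days, the group with the widest spread.

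**Figure D1:**
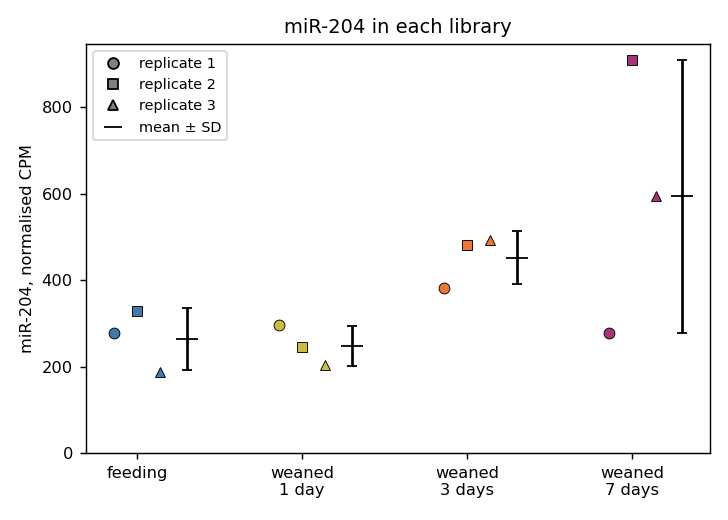
MiR-204 in each of the 12 libraries (y axis: normalised CPM; x axis: the 4 groups; marker shapes: replicates; black bars: mean ± SD, n = 3). The 3-day libraries, at 382 to 493, sit above all feeding libraries, at 187 to 328, and the 7-day libraries spread from 278 to 909.

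After 1 day of weaning, miR-204 did not pass the test against suckling. Its fold change was 0.942 (95% interval 0.494 to 1.80), a log2 difference of -0.09 ± 0.42 (SE; edgeR quasi-likelihood test, two-sided, adjusted p = 1). The interval leaves room for a level about as low as 0.494 or as high as 1.80 times that in suckling piglets. The direction was not settled, since the log2 difference turned to 0.024 with library totals alone and to 0.13 with totals that include exon, intron and intergenic counts. It also turned to 0.028 without feeding replicate 2 and to 0.037 without replicate 3 of the 1-day group.

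After 3 days miR-204 was 1.71 times its level in suckling piglets (95% interval 0.894 to 3.27), short of the threshold. The log2 difference was 0.77 ± 0.43 (SE; edgeR, unadjusted p = 0.0961, adjusted p = 0.565). Against 1 day of weaning it was 1.82 times as high (95% interval 0.948 to 3.48), with a log2 difference of 0.86 ± 0.43 (SE; edgeR, unadjusted p = 0.0684, adjusted p = 0.578). All 3 libraries of the 3-day group were above every feeding library, as were 19 of 295 known microRNAs (6.44%), and above every 1-day library, as were again 19 (6.44%). Across all 2453 small RNAs tested, edgeR called 0 (0%) at 3 days against feeding, 0 at 3 days against 1 day and 0 at 1 day against feeding. Unadjusted p fell under 0.05 for 145, 118 and 74 of them. DESeq2 called 35 (1.96% of those with an adjusted p), 27 (1.17%) and 20 (0.907%), and limma 0, 0 and 0 (0%), and miR-204 was not among the calls of either tool. Among known microRNAs tested alone, the log2 difference at 3 days was 0.78 ± 0.33 (SE) against feeding (edgeR adjusted p = 0.513) and 1.01 ± 0.33 against 1 day (edgeR adjusted p = 0.365).

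After 7 days, the time for which miR-204 was chosen, it averaged 2.25 times the feeding level, a log2 difference of 1.17 ± 0.43 (SE). Against 1 day the log2 difference was 1.25 ± 0.43 and against 3 days 0.39 ± 0.43. By its log2 difference from feeding it ranked 7 of 295 known microRNAs, with a median of -0.24 for known microRNAs and 0.32 for all small RNAs tested. Fitted among known microRNAs alone, where their median was 0.00, its log2 difference was 1.35 ± 0.34 (SE), and 1.62 without replicate 1 of the 7-day group. Single libraries moved these values: against feeding the log2 difference was 1.51 without replicate 1 of the 7-day group and 0.72 without replicate 2. Against 3 days it was 0.73 without replicate 1 and -0.060 without replicate 2. For 7 days against feeding, edgeR called 1 of 2453 small RNAs (0.0408%), DESeq2 42 (1.99% of those with an adjusted p) and limma 2 (0.0815%). These counts are background over all features. MiR-204 was given no test on this contrast, because it was chosen on it.

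Where the first 7-day library fell among the others differed with the denominator. On the authors' deposited TPM, which is a share of all listed counts, miR-204 was 155, 187 and 149 in feeding, 205, 190 and 145 after 1 day, 209, 283 and 355 after 3 days, and 171, 615 and 559 after 7 days. The low 7-day library again lay within the feeding range, but on this scale 2 of the 3 libraries of the 1-day group were above every feeding library, with a ratio of means of 1.10. As a share of known microRNA counts, it was 0.0247%, 0.0381% and 0.0224% in feeding, 0.0308%, 0.0315% and 0.0222% after 1 day, 0.0450%, 0.0442% and 0.0533% after 3 days, and 0.0676%, 0.127% and 0.104% after 7 days. On that scale the 7-day libraries were all above every library of the other groups, as were 68 of 295 known microRNAs (23.1%) against feeding, so standing clear of feeding is common there. Per 1000 counts of miR-191, a broadly expressed and abundant microRNA, miR-204 was 3.63, 5.47 and 2.73 in feeding, 3.995, 3.50 and 2.59 after 1 day, 5.98, 7.27 and 8.27 after 3 days, and 4.58, 16.2 and 11.9 after 7 days. MiR-191 itself averaged 68409 ± 8219 CPM in feeding and 55666 ± 5226 after 7 days (SD, n = 3), and the libraries of these groups overlapped. Its log2 difference was -0.30 ± 0.20 (SE), and 0.023 when the fit held known microRNAs only. MiR-191 was also among the 3 known microRNAs least like miR-204 over the 12 libraries (Pearson r of log2 normalised CPM = -0.74). A lower miR-191 raises this ratio whatever miR-204 does.

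The 3-day libraries were above every feeding library on each of these scales and on counts over DESeq2 size factors. Of the 295 known microRNAs tested, 11 stood clear of feeding in the same way on deposited TPM (3.73%) and 27 as a share of known microRNA counts (9.15%). Against miR-191 there were 34 (11.5%), and on counts over DESeq2 size factors 18 (6.1%). The ratio of the 3-day to the feeding mean was 1.72 on deposited TPM, 1.67 as a share of known microRNA counts, 1.82 against miR-191 and 1.67 on counts over DESeq2 size factors. At 7 days the same ratios were 2.74, 3.52, 2.76 and 2.12, a wider range than at 3 days. Without replicate 1 of the 7-day group they were 3.58, 4.08, 3.56 and 2.61.

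**Figure D2:**
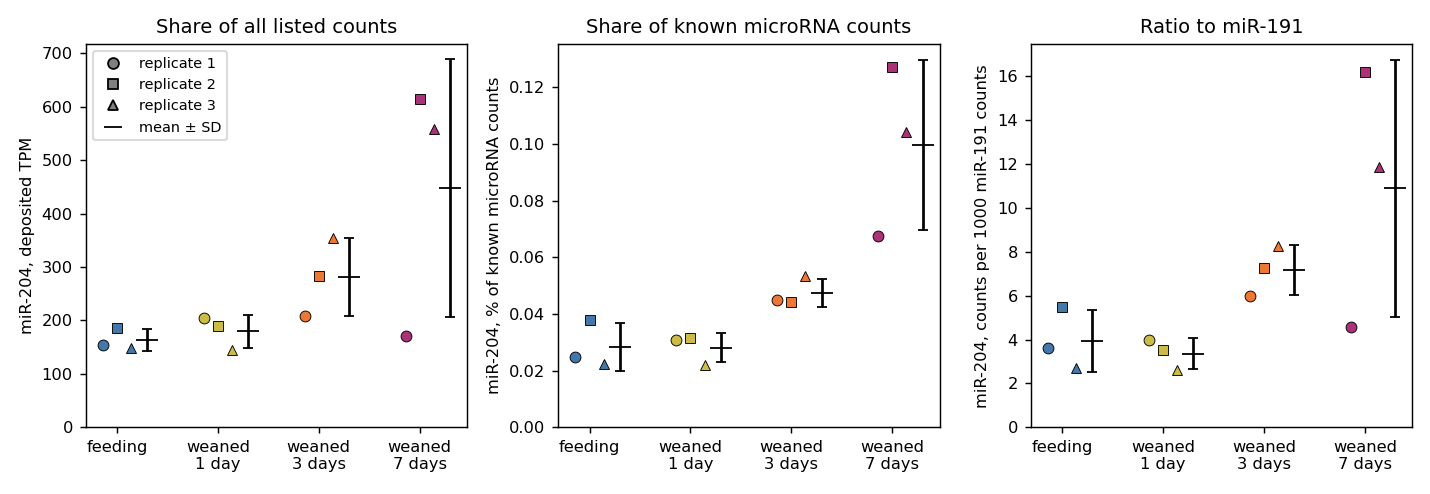
MiR-204 on 3 other scales (y axes: deposited TPM, percent of known microRNA counts, and counts per 1000 miR-191 counts; x axes: the 4 groups; markers: replicates; bars: mean ± SD, n = 3). Replicate 1 of the 7-day group is inside the feeding range at 171 TPM and above it at 0.0676% of known microRNA counts.

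The position of miR-204 among the known microRNAs of its own library needs no scaling between libraries. Ordered by raw count, it was number 103, 96 and 118 in the feeding libraries and 103, 102 and 117 after 1 day. It was number 89, 88 and 87 after 3 days and 77, 68 and 79 after 7 days. All 3-day and all 7-day libraries, the first 7-day library included, had miR-204 nearer the top than any feeding or 1-day library. Standing nearer the top in every library than in feeding was shared by 19 of 295 known microRNAs at 3 days (6.44%) and 29 at 7 days (9.83%). Against the 1-day libraries it was shared by 37 at 3 days (12.5%) and 28 at 7 days (9.49%).

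**Figure D3:**
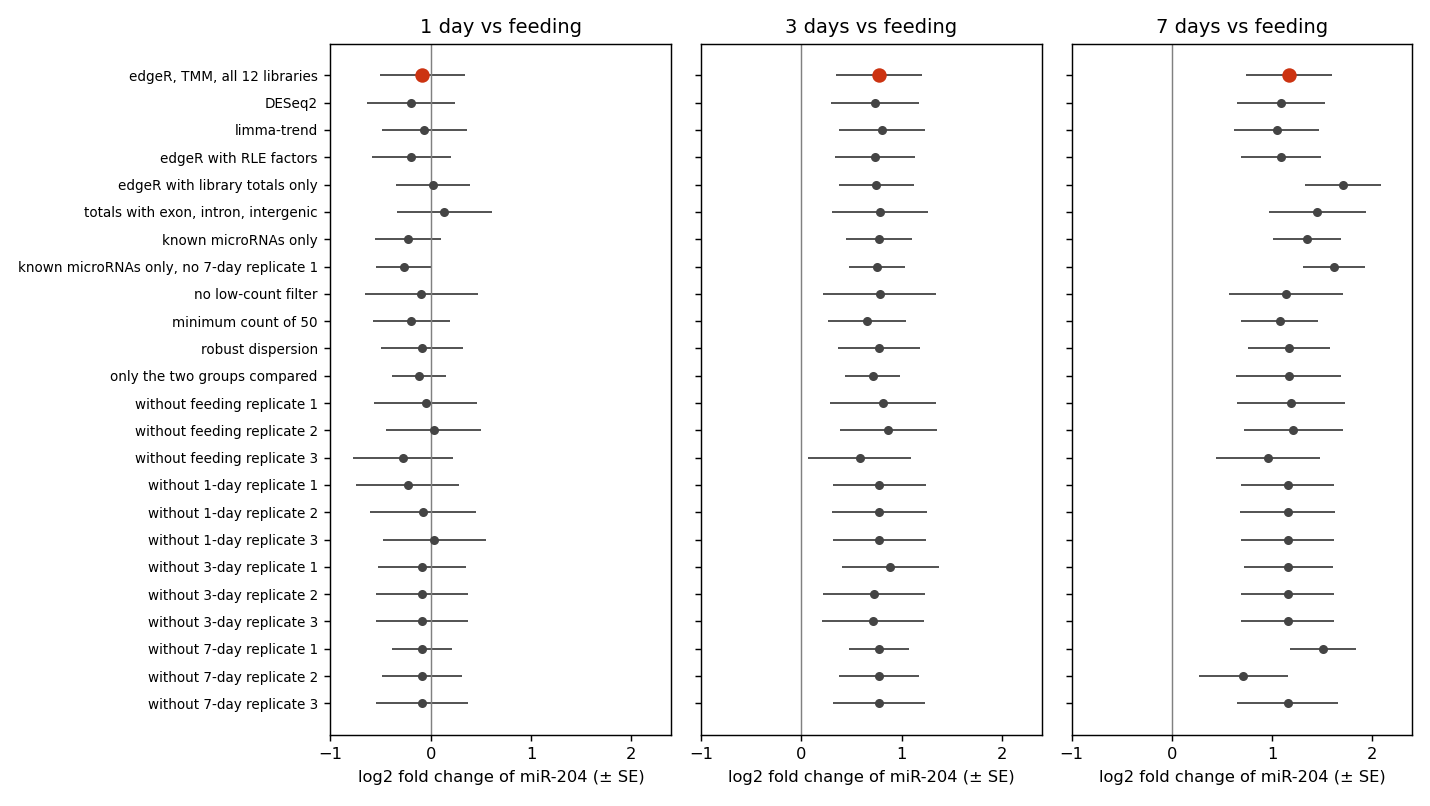
Log2 fold change of miR-204 against feeding at 1, 3 and 7 days (x axes; points: estimate; lines: ± SE) under each way of processing the data (y axis; the red point at the top is the fit described in the text). Estimates run from 0.58 to 0.89 at 3 days and from 0.72 to 1.71 at 7 days, and lie on both sides of 0 at 1 day.

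Markers of the cell types that a piece of intestine holds were summed in the same libraries. In bulk tissue, fewer cells of a type and less RNA per cell cannot be told apart. The 5 gut epithelium microRNAs summed to 221098 to 481562 CPM in feeding, 130431 to 231642 after 1 day, 269839 to 327166 after 3 days and 54238 to 98279 after 7 days. At 7 days they were thus below every feeding library while miR-204 was above feeding in replicates 2 and 3, and 5 of 5 were lower with a median log2 difference of -2.57, or -1.99 without replicate 1 of the 7-day group. Their part in the level of miR-204 at 7 days was not tested. At 3 days their sum lay inside the feeding range, with 4 of 5 members lower and a median log2 difference of -0.40, while miR-204 was above every feeding library. Among known microRNAs tested, 161 of 295 were lower at 3 days (median -0.05) and 209 at 7 days (median -0.24). The median over all small RNAs tested was 0.24 at 3 days and 0.32 at 7 days. How many known microRNAs lay below every feeding library was not counted. MiR-429, the tested member of the miR-200 family of epithelial cells, stood at 5426 to 7728 CPM in feeding, 5862 to 8103 after 3 days and 1354 to 4525 after 7 days.

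Neuronal microRNAs did not shift together in direction at 3 or 7 days. Of 16 tested members, 9 were higher and 7 lower at 3 days (median log2 difference 0.01), and 9 were higher and 7 lower at 7 days (median 0.09, or 0.26 without replicate 1 of the 7-day group). At 1 day 12 were higher and 4 lower (median 0.54), beside 196 of 295 known microRNAs higher (median 0.17). The neuronal list summed to 1406 to 1715 CPM in feeding and 1174 to 2125 after 1 day. It summed to 1173 to 1736 after 3 days and 851 to 1164 after 7 days, the last below every feeding library. Of 17 listed members, 15 had a count in every library. MiR-128, with a mean of 1039 CPM in feeding and 633 after 7 days, made up much of this sum. The endocrine member miR-7, found in islets and enteroendocrine cells, stood at 1450 to 2262 CPM in feeding, 1319 to 1954 after 3 days and 1716 to 6333 after 7 days, and the groups overlapped. The miR-199 and miR-214 list of fibroblasts and mesenchyme summed to 8329 to 8966 CPM in feeding, 8672 to 11954 after 3 days and 4237 to 9586 after 7 days.

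Muscle, endothelial, leukocyte and red blood cell lists gave other patterns. Muscle microRNAs summed to 33097 to 42536 CPM in feeding and reached 205028 in 1 library after 1 day, at which time miR-204 stayed inside the feeding range as normalised CPM. They summed to 34758 to 47316 after 3 days and 30134 to 36231 after 7 days. All 7 tested muscle members were higher at 1 day than in feeding (median log2 difference 1.31), as were 196 of 295 known microRNAs (median 0.17). The endothelial pair of miR-126 arms summed to 13241 to 15317 CPM in feeding, 13375 to 18445 after 3 days and 11726 to 15104 after 7 days. All 6 leukocyte members were lower at 3 days than in feeding, with a median log2 difference of -0.60, against 161 of 295 known microRNAs lower with a median of -0.05. At 1 day all 6 were higher, as were 196 of 295 known microRNAs, and at 7 days 5 were lower, as were 209. Their sum was 5588 to 8576 CPM in feeding, 8889 to 11095 after 1 day, 3356 to 6994 after 3 days and 6239 to 7701 after 7 days. The feeding and 3-day sums thus overlapped. Red blood cell microRNAs summed to 1346 to 2844 CPM in feeding and 3067 to 4242 after 1 day, above every feeding library. They summed to 2699 to 3630 after 3 days and 2384 to 3639 after 7 days. This sum was mostly miR-451, which averaged 2138 CPM in feeding, against 25.8 for miR-486. Of the 3 members, 1 was higher and 2 lower at 3 days than in feeding (median log2 difference -0.05). At 1 day 2 were higher and 1 lower (median 0.13), and at 7 days again 2 were higher and 1 lower. None of the members of these lists passed the adjusted threshold of edgeR in the 3 comparisons among feeding, 1 day and 3 days. The part of these cell types in the level of miR-204 was not tested.

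The known microRNAs whose levels followed miR-204 most closely were found by Pearson correlation of log2 normalised CPM over the 12 libraries, among 294 others. These values are a description: the points share library scaling and the 4 groups, and a rank among 294 favours high values by its construction. MiR-132, a member of the neuronal list that is induced by neuronal activity in mammals, came first with r = 0.79. That list was split against feeding, with 9 of 16 tested members higher and 7 lower at both 3 and 7 days. MiR-128, its abundant member, averaged 1039 CPM in feeding and 633 after 7 days. MiR-132 stood between 10.04 and 12.15 CPM in the feeding libraries, and at 7.69, 10.7 and 6.75 after 1 day. It stood at 17.9, 16.3 and 30.1 after 3 days, and 7.12, 27.1 and 17.7 after 7 days. Like miR-204, it was above every feeding library in all 3-day libraries and in replicates 2 and 3 at 7 days, and low in replicate 1. Standing above every feeding library at 3 days was shared by 19 of 295 known microRNAs (6.44%), and miR-132 was picked for its correlation over these same libraries. MiR-125a, a relative of the developmental timing microRNA lin-4 of worms, followed with r = 0.70. It stood at 1850 ± 215 CPM in feeding, 2346 ± 367 after 1 day, 3044 ± 362 after 3 days and 2555 ± 607 after 7 days (SD, n = 3). Its log2 difference at 3 days against feeding was 0.72 ± 0.27 (SE; edgeR adjusted p = 0.565), short of the threshold. The other 3 were miR-139-3p (r = 0.69), miR-9860-5p (r = 0.68) and miR-9820-5p (r = 0.67), the last on 5 to 21 counts per library.

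Without the 7-day libraries, r over the other 9 was 0.73 for miR-132, 0.74 for miR-125a, 0.65 for miR-139-3p, 0.32 for miR-9860-5p and 0.87 for miR-9820-5p. The likeness of miR-9860-5p thus rested mostly on the 7-day libraries, while the other 4 had an r of 0.648 or more without them. The 5 were picked over all 12 libraries, which include these 9, so a high r in the 9 is partly built in. Over the 9 libraries miR-27b-3p (r = 0.84) and miR-664-5p (r = 0.78) ranked above miR-125a and miR-132. At the opposite end over the 12 libraries were miR-140-5p (r = -0.74), best known from cartilage, miR-191 (r = -0.74) and miR-7857-3p (r = -0.69). MiR-140-5p stood at 611, 538 and 588 CPM in feeding and 354, 364 and 678 after 1 day. It stood at 319, 321 and 339 after 3 days and 331, 269 and 315 after 7 days. All 3-day and 7-day libraries were thus below every feeding library, and at 3 days the log2 difference of -0.83 ± 0.33 (SE) did not pass (edgeR adjusted p = 0.565). How many known microRNAs lay below feeding in this way was not counted. Of 295 tested, 161 had a lower estimate than feeding at 3 days and 209 at 7 days. MiR-140-5p was also picked for its low correlation over these same libraries.

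**Figure D4:**
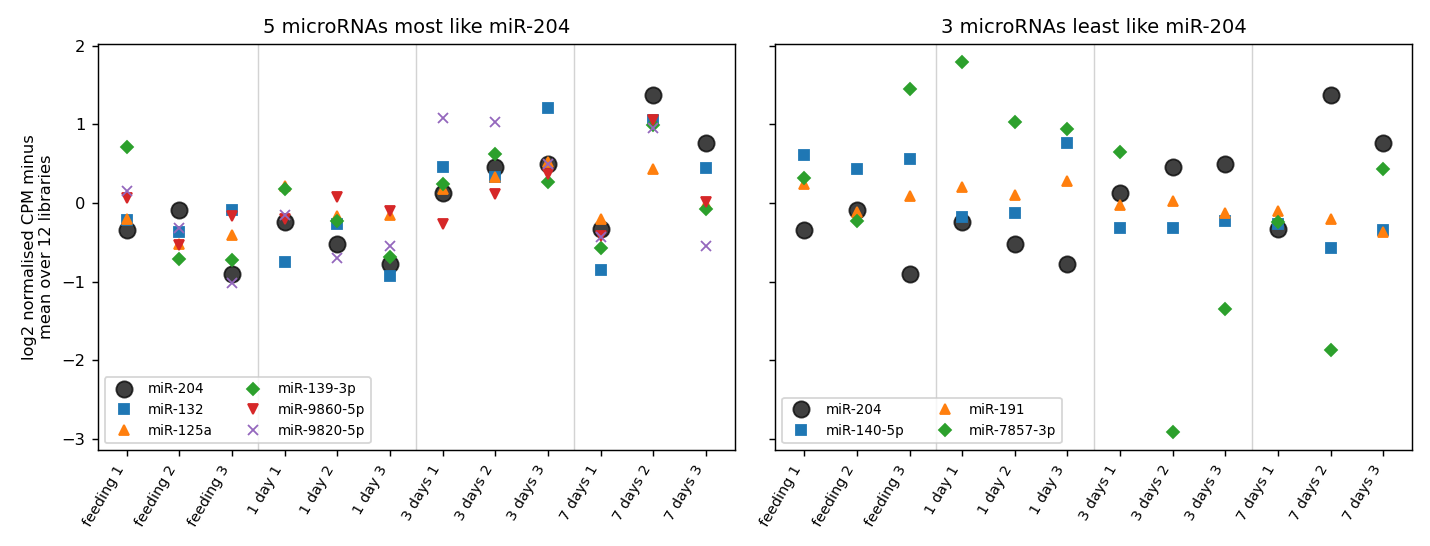
Log2 normalised CPM minus the mean over the 12 libraries (y axis) in each library (x axis, by group and replicate) for miR-204 (large dark circles) with the 5 most like and the 3 least like known microRNAs. MiR-132 and miR-204 are both low in replicate 1 and high in replicate 2 of the 7-day group, and miR-140-5p is below its mean in every 3-day and 7-day library.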

How the data were processed

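The submitters sequenced small RNA from intestine. The authors deposited, per the file headers, a list of identifiers with a count and a TPM per library. The deposited counts are whole numbers, and an unlisted small RNA was entered as 0. The deposited TPM matches the counts rescaled by the library total (CPM), within 0.00944, with no length term. The genome build was Sscrofa11.1, per the submitters' processing notes. For the aligner and for reads matching several names, the step is not given in the sources used here. The 3 totals for exon, intron and intergenic reads, 19.96% to 62.17% of a library, stand for no single small RNA and were not tested. Counts of 8 repeated names were summed.

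Counts were fitted with edgeR 4.0.16 in R 4.3.3 (filterByExpr, minimum count 10 and total 15; TMM; 4 group means over 12 libraries; quasi-likelihood test; Benjamini-Hochberg over 2453 small RNAs; threshold 0.05). Log2 CPM used a prior count of 2. Alternatives were DESeq2 1.42.0, limma 3.58.1, other scalings and filters, known microRNAs alone, 2 groups alone and leaving out each library. The procedure was tested on simulated data. MiR-204, the marker lists and the rule for named microRNAs (the 5 most and 3 least correlated, and the 2 most abundant of a list) were chosen with earlier results of these data known. No sequence is printed.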

Additional observations from a re-analysis of the deposited data

How the results depend on the processing

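For miR-204, 23 alternatives were run in each of 6 comparisons. The log2 difference at 3 days kept its direction and missed the threshold in all 23 against feeding (0.58 to 0.89 leaving out each library, 0.66 to 0.80 otherwise; adjusted p 0.309 to 0.996) and in all 23 against 1 day (0.74 to 1.01 and 0.65 to 1.02; adjusted p 0.204 to 0.925). At 1 day against feeding the adjusted p ran from 0.825 to 1, and the value of -0.09 turned to 0.024 with library totals only and to 0.13 with exon, intron and intergenic counts in the totals; leaving out each library gave -0.28 to 0.037, with 0.028 without feeding replicate 2 and 0.037 without 1-day replicate 3. The cause was not tested. At 7 days, leaving out each library gave 0.72 to 1.51 against feeding, 0.80 to 1.60 against 1 day and -0.060 to 0.73 against 3 days, the negative value without 7-day replicate 2; the other alternatives gave 1.05 to 1.71, 1.11 to 1.89 and 0.24 to 0.96. Of the 5 microRNAs most like miR-204, 3 were also among the first 5 by Spearman's rank correlation and 3 without the 7-day libraries, and miR-132, miR-125a and miR-9820-5p were the 3 in both. Small RNAs called at 1 day against feeding, 3 days against feeding and 3 days against 1 day numbered 0, 0 and 0, against 20, 35 and 27 by DESeq2 and 23, 56 and 47 with no low-count filter; known microRNAs alone without 7-day replicate 1 gave 0, 0 and 1. Each group holds 3 libraries, and counting error was small beside the spread between libraries. The scale also moved the values, with a 7-day to feeding ratio of 2.12 to 3.52. No paired analysis was possible because the labels give no replicate number shared between groups.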
